A study of Homo sapiens with 10 samples.

Results

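The genes that break down extracellular ATP to adenosine, and those that bind, move or remove adenosine, were compared by RNA-seq in untreated cells of the endothelial lines EA.hy926 and HMEC-1. They were chosen by name and comprise 10 of the 60448 genes in the count table, namely *ENTPD1*, *NT5E*, *ENPP1*, *ADA*, *ADK*, *ADORA1*, *ADORA2A*, *ADORA2B*, *SLC29A1* and *SLC29A2*. EA.hy926 arose by fusing human umbilical vein endothelial cells with A549 lung carcinoma cells, and HMEC-1 derives from dermal microvascular endothelium and was immortalized with the SV40 large T antigen. EA.hy926 cells grew in Advanced DMEM with 5% FBS, whereas HMEC-1 cells grew in MCDB 131 with 10% FBS, epidermal growth factor at 10 ng/mL and hydrocortisone at 1 µg/mL, so line and medium cannot be told apart in any comparison made here. Both lines were labelled wild type (WT) and sampled as 5 replicates. The study's methods call the replicates independent and biological, while the labels number them without naming separate cultures, and p-values measure the spread between these samples.

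ATP that leaves a cell acts on P2X and P2Y receptors until enzymes at the cell surface remove its phosphates. CD39, encoded by *ENTPD1*, takes ATP and ADP to AMP, and CD73, encoded by *NT5E*, takes AMP to adenosine, while *ENPP1* encodes a pyrophosphatase that takes ATP directly to AMP and pyrophosphate. Adenosine then binds its own G protein-coupled receptors or enters the cell through equilibrative transporters, where adenosine deaminase (*ADA*) turns it into inosine and adenosine kinase (*ADK*) into AMP. In endothelium this chain of reactions is known for its part in limiting platelet aggregation, leukocyte adhesion and vascular leakage.

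The promoters of *ENPP1*, *ADORA1* and *ADORA2B* are shown because these genes had the largest differences between the lines. Each sequence is the 250 bases before the transcription start in RefSeq on GRCh38.p14, on the plus strand, at chr6:131807770-131808019, chr1:203127476-203127725 and chr17:15944880-15945129, respectively. Capitals mark matches, on either strand, to ACGTG, the core bound by hypoxia-inducible factors, to TGACG, the core of the cAMP response element, or to GGGCGG, the GC box bound by Sp1.
ENPP1: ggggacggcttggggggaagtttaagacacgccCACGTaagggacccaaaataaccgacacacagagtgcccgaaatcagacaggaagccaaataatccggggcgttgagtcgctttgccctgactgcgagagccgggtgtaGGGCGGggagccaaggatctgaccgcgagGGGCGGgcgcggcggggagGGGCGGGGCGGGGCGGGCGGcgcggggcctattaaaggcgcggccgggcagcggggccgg
ADORA1: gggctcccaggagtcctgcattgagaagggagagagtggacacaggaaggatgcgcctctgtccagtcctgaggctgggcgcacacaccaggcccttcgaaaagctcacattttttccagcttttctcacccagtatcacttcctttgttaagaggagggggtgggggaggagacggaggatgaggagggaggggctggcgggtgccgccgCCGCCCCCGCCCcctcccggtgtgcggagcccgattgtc
ADORA2B: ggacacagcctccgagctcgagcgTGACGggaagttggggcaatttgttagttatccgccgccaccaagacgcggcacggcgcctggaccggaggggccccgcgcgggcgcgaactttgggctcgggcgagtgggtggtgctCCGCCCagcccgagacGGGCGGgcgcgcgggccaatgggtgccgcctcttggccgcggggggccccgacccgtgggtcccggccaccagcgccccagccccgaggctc
The *ENPP1* promoter held 6 GC boxes, overlapping in part, and 1 ACGTG match that began 217 bases before the start. The *ADORA1* promoter held 2 GC boxes, and that of *ADORA2B* held 2 GC boxes and 1 TGACG match that began 226 bases before the start. Of 35116 RefSeq promoters of this length, 42.6% held a GC box, 18.5% ACGTG and 21.2% TGACG, so these letters are common. The full cAMP response element TGACGTCA, which contains TGACG, occurred in 1.65% of all promoters and in none of the 14 promoters listed for 8 of the genes.

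The EA.hy926 libraries held 34846046 to 39899324 counts each, and the HMEC-1 libraries 33391640 to 43877224. Of the 60448 genes, 16310 had enough counts for testing with edgeR's quasi-likelihood test, and significance required an adjusted p under 0.05 and an absolute log2 fold change (log2FC) over 1, with positive values for higher expression in EA.hy926. Expression is given as CPM, counts scaled by the TMM-normalized library size. Of the 10 genes, 9 were tested and *ADORA2A* was left out for low counts. Both thresholds were passed by 4 of the 9, where 35.5% of all genes tested passed them. *ENPP1*, *ADA* and *ADORA1* were higher in EA.hy926 (19.1% of all genes) and *ADORA2B* was lower (16.4%). An adjusted p under 0.05 was reached by 9 of 9, and the CPM of the lines did not overlap for 9 of 9, as for 85.8% and 77.4% of all genes tested. The median absolute log2FC was 0.63 over the 9 genes and 0.65 over all genes. In bulk RNA, fewer cells expressing a gene and less RNA per cell cannot be told apart.

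**Figure D1:**
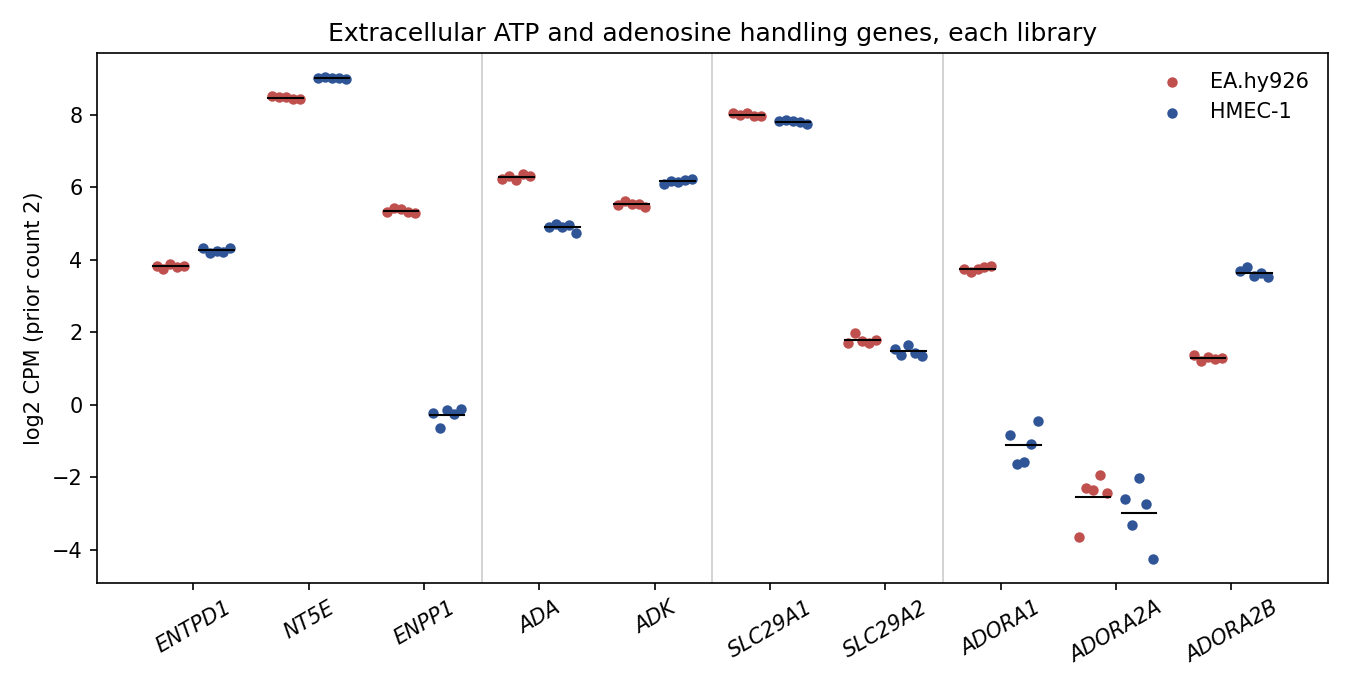
Expression of the 10 genes in every library, as log2 CPM with a prior count of 2, for EA.hy926 (red) and HMEC-1 (blue). Points are libraries and black lines are means of 5 libraries. *ENPP1*, *ADORA1* and *ADORA2B* show the widest gaps between the lines, and *ADORA2A* is the lowest gene in both, with overlapping lines.

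The ectonucleotidases differed in kind. *ENPP1* was far higher in EA.hy926, whereas *ENTPD1* and *NT5E* were moderately higher in HMEC-1. *ENPP1* (chr6:131808016-131895155) was at 39.5, 43.0, 42.2, 39.7 and 39.3 CPM in EA.hy926 replicates 1 to 5, and at 0.799, 0.588, 0.846, 0.785 and 0.864 CPM in those of HMEC-1. The counts behind these values were 1427 to 1525 for EA.hy926 and 24 to 39 for HMEC-1, which is above the level of 3 counts taken as the floor (0.0651 to 0.0856 CPM in HMEC-1). The log2FC was 5.71 (SE 0.072, adjusted p = 2.0e-24 by edgeR), a 52.2-fold higher expression in EA.hy926.

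*NT5E* (chr6:85449584-85495791) was the most abundant of the 10 genes by CPM in both lines. It was measured at 365, 361, 355, 345 and 345 CPM in EA.hy926 and at 518, 524, 519, 512 and 505 CPM in HMEC-1, so every HMEC-1 library lay above every EA.hy926 library. The difference was 1.46-fold (log2FC = -0.54, SE 0.024, adjusted p = 5.2e-15), under the fold threshold. Per length of exon, *NT5E* stood at the 97.0 percentile of 16109 genes in EA.hy926 and at the 98.4 percentile in HMEC-1.

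*ENTPD1* (chr10:95711779-95877266) was expressed at a lower level. Its values were 14.3, 13.4, 14.7, 13.8 and 14.2 CPM in EA.hy926 and 19.99, 18.3, 18.7, 18.6 and 19.9 CPM in HMEC-1, again without overlap. It was 1.35-fold higher in HMEC-1 (log2FC = -0.44, SE 0.047, adjusted p = 1.8e-08). Exons of the antisense gene *ENTPD1-AS1* cover 40.0% of its exonic bases, and reads of the 2 genes cannot be told apart if the counting ignored strand. *ENTPD1-AS1* itself had 20 to 31 counts for EA.hy926 and 24 to 32 for HMEC-1, against 444 to 532 and 701 to 863 for *ENTPD1*. If strand was ignored, reads in the shared exons may also be counted for neither gene. The level of *ENTPD1*, and any rank or ratio formed from it, is uncertain to that extent.

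The 2 enzymes that consume adenosine moved in opposite directions, with *ADA* higher in EA.hy926 and *ADK* higher in HMEC-1. *ADA* (chr20:44584896-44652252) was at 74.1, 79.0, 73.5, 82.2 and 79.7 CPM in EA.hy926 and at 29.9, 31.8, 29.9, 30.8 and 26.7 CPM in HMEC-1. The lines were far apart beside their spread, and the 2.60-fold difference passed both thresholds (log2FC = 1.38, SE 0.042, adjusted p = 7.2e-18). The antisense gene *PKIG*, an inhibitor of protein kinase A, overlaps 7.0% of the exonic bases of *ADA*. *PKIG* was also higher in EA.hy926 (log2FC = 1.98, SE 0.031), with 5248 to 6224 counts against 1383 to 1830, and its part in the counts of *ADA* was not tested.

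*ADK* (chr10:74151202-74709963) was measured at 45.8, 48.7, 46.3, 46.2 and 44.2 CPM in EA.hy926 and at 68.2, 71.3, 71.2, 73.0 and 74.9 CPM in HMEC-1. All HMEC-1 libraries were above all EA.hy926 libraries. The log2FC of -0.63 (SE 0.032, adjusted p = 6.8e-14), or 1.55-fold, did not reach the fold threshold.

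By the counts as deposited, the adenosine receptor genes had a different predominant member in each line. The receptor encoded by *ADORA1* couples to inhibitory G proteins, whereas those of *ADORA2A* and *ADORA2B* raise cAMP, and the product of *ADORA2B* needs the higher adenosine concentrations. *ADORA1* (chr1:203090654-203167405) was at 13.2, 12.6, 13.2, 13.9 and 14.1 CPM in EA.hy926 and at 0.513, 0.270, 0.282, 0.417 and 0.680 CPM in HMEC-1. The counts were 419 to 533 for EA.hy926 and 11 to 26 for HMEC-1, low but above the floor in every library. *ADORA1* was 31.4-fold higher in EA.hy926 (log2FC = 4.97, SE 0.13, adjusted p = 3.9e-19).

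*ADORA2B* (chr17:15945130-15975746) had the opposite direction. It was at 2.54, 2.26, 2.45, 2.37 and 2.40 CPM in EA.hy926 and at 12.8, 13.8, 11.8, 12.3 and 11.5 CPM in HMEC-1. This made it 5.16-fold higher in HMEC-1 (log2FC = -2.37, SE 0.076, adjusted p = 1.7e-17), the only one of the 10 genes past both thresholds in that direction. No exon of another annotated gene overlaps *ADORA2B*.

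*ADORA2A* (chr22:24417879-24442357) was close to undetected in both lines. Its counts were 1, 5, 5, 8 and 5 in EA.hy926 and 4, 2, 9, 4 and 0 in HMEC-1, and the lines overlapped. In a fit without a filter on low counts its log2FC was 0.47 (SE 0.56, adjusted p = 0.474), so a difference was not detectable at this depth. The readthrough gene *SPECC1L-ADORA2A* covers 56.8% of its exonic bases and 100% of its coding bases on the same strand, and a read there may be counted for neither gene, so the low counts of *ADORA2A* are uncertain. The readthrough gene was at 0 counts in EA.hy926 and at 0 to 1 in HMEC-1. *ADORA3*, encoding the remaining adenosine receptor, had at most 6 counts in a library and was not tested. Exons of *TMIGD3* on the same strand cover 24.6% of the exonic bases of *ADORA3* and 36.7% of its coding bases, so these counts are uncertain too.

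Expressed as a share of the summed counts per exon length of the 4 receptor genes, *ADORA1* made up 74.6% ± 0.69 (SD, n = 5) in EA.hy926 and 1.92% ± 0.83 in HMEC-1. *ADORA2B* made up 24.0% ± 1.08 in EA.hy926 and 97.6% ± 0.70 in HMEC-1. These shares take the uncertain counts of *ADORA2A* and *ADORA3* as deposited, and reads counted for neither of 2 overlapping genes are missing from them. The lowest *ADORA1* share in an EA.hy926 library was 73.7%, and the highest in an HMEC-1 library was 3.18%. With the length of the canonical transcript in place of all exons, a choice made after seeing the data, the *ADORA1* shares were 73.4% and 1.81%.

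**Figure D2:**
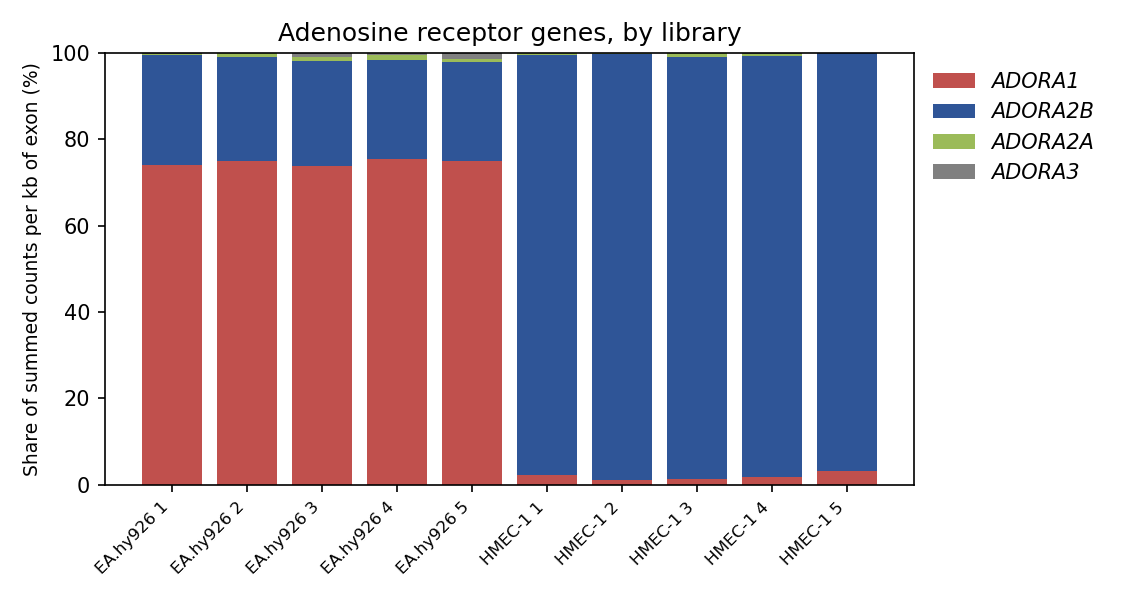
Share of each adenosine receptor gene in the summed counts per kb of exon of the 4 receptor genes (vertical axis, percent), with 1 bar per library. *ADORA1* (red) takes 73.7% to 75.3% of each EA.hy926 bar, and *ADORA2B* (blue) takes 96.8% to 98.7% of each HMEC-1 bar.

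The equilibrative nucleoside transporters *SLC29A1* and *SLC29A2* had the smallest differences of the 9 tested genes. *SLC29A1* (chr6:44219553-44234142), encoding ENT1, the high-affinity transporter for adenosine, was at 265, 255, 263, 249 and 249 CPM in EA.hy926 and at 227, 232, 225, 221 and 214 CPM in HMEC-1. The libraries of the lines were close but did not overlap, and the difference was 1.14-fold (log2FC = 0.19, SE 0.027, adjusted p = 1.1e-06). *SLC29A2* (chr11:66362521-66372214), encoding ENT2, which also carries nucleobases, was at 3.22, 3.86, 3.36, 3.20 and 3.40 CPM in EA.hy926 and at 2.85, 2.55, 3.10, 2.65 and 2.49 CPM in HMEC-1. Its log2FC was 0.32 (SE 0.10, adjusted p = 0.0074). When libraries were scaled by their totals alone, which moved the median log2FC of all genes by -0.13, the log2FC fell to 0.06 (adjusted p = 0.034) for *SLC29A1* and to 0.18 for *SLC29A2*, whose adjusted p was then 0.106. The divergent transcript *B4GAT1-DT* overlaps 10.3% of the exonic bases of *SLC29A2* and had 42 to 81 counts per library, against 95 to 143 for *SLC29A2*.

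Ranked by CPM per kb of exon, EA.hy926 had the order *NT5E* (78.2), *SLC29A1* (59.6), *ADK* (9.92), *ADA* (6.38), *ENPP1* (3.57), *ADORA1* (3.20), *SLC29A2* (1.25), *ADORA2B* (1.03), *ENTPD1* (0.982) and *ADORA2A* (0.032). Of these neighbours, *ADORA2B* and *ENTPD1* overlapped between libraries. In HMEC-1 the order was *NT5E* (114), *SLC29A1* (52.1), *ADK* (15.4), *ADORA2B* (5.32), *ADA* (2.45), *ENTPD1* (1.33), *SLC29A2* (1.00), *ADORA1* (0.103), *ENPP1* (0.068) and *ADORA2A* (0.022), and *ADORA1* overlapped with *ENPP1*. The order depends on the gene length, because the annotated exons of *ADA* sum to 12177 bases and its canonical transcript has 1496. With canonical lengths, *SLC29A1* (123) came before *NT5E* (99.5) and *ADA* (51.9) before *ADK* (23.2) in EA.hy926, and *ADA* (19.9) came before *ADORA2B* (8.17) in HMEC-1.

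To compare the balance of paired genes without library scaling, 5 log2 ratios of counts per kb of exon were formed within each library, with 0.5 counts added, and compared by a two-sided exact permutation test with adjustment over the 5 ratios (smallest possible p = 0.00794). The ratio of *ADA* to *ADK*, deamination against phosphorylation of adenosine, was -0.64 ± 0.085 (SD, n = 5) in EA.hy926 and -2.65 ± 0.13 in HMEC-1. It was 2.02 higher in EA.hy926 on the log2 scale (exact p = 0.00794, adjusted p = 0.0198), with no overlap between the lines. As linear ratios these were 0.642 and 0.159, or 2.24 and 0.553 with canonical transcript lengths, so which of the 2 genes had the higher level in EA.hy926 depended on the length used. The ratio of *NT5E* to *ADA*, formation against deamination, was 1.92 lower in EA.hy926 (log2 difference -1.92, exact p = 0.00794, adjusted p = 0.0198), at 3.62 ± 0.099 against 5.54 ± 0.078. As linear ratios these were 12.3 and 46.5, or 1.92 and 7.27 with canonical transcript lengths, while the difference between the lines does not depend on the length.

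The ratio of *NT5E* to *ENTPD1* differed by -0.10 (exact p = 0.0476, adjusted p = 0.0595), and that of *SLC29A1* to *SLC29A2* by -0.13 (exact p = 0.135, adjusted p = 0.135). Neither passed the threshold, and the libraries of the lines overlapped in both. Adjusted p-values for these ratios fell to 0.0397 without EA.hy926 replicate 2 or HMEC-1 replicate 5 for the former and without HMEC-1 replicate 3 for the latter. The ratio of *ADORA2A* to *ADORA2B* was 3.14 higher in EA.hy926 (exact p = 0.0159, adjusted p = 0.0265) but rests on at most 9 counts of *ADORA2A* in a library. Its adjusted p rose to 0.0529 without any 1 of EA.hy926 replicates 3, 4 and 5 or HMEC-1 replicates 1, 2 and 4.

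**Figure D3:**
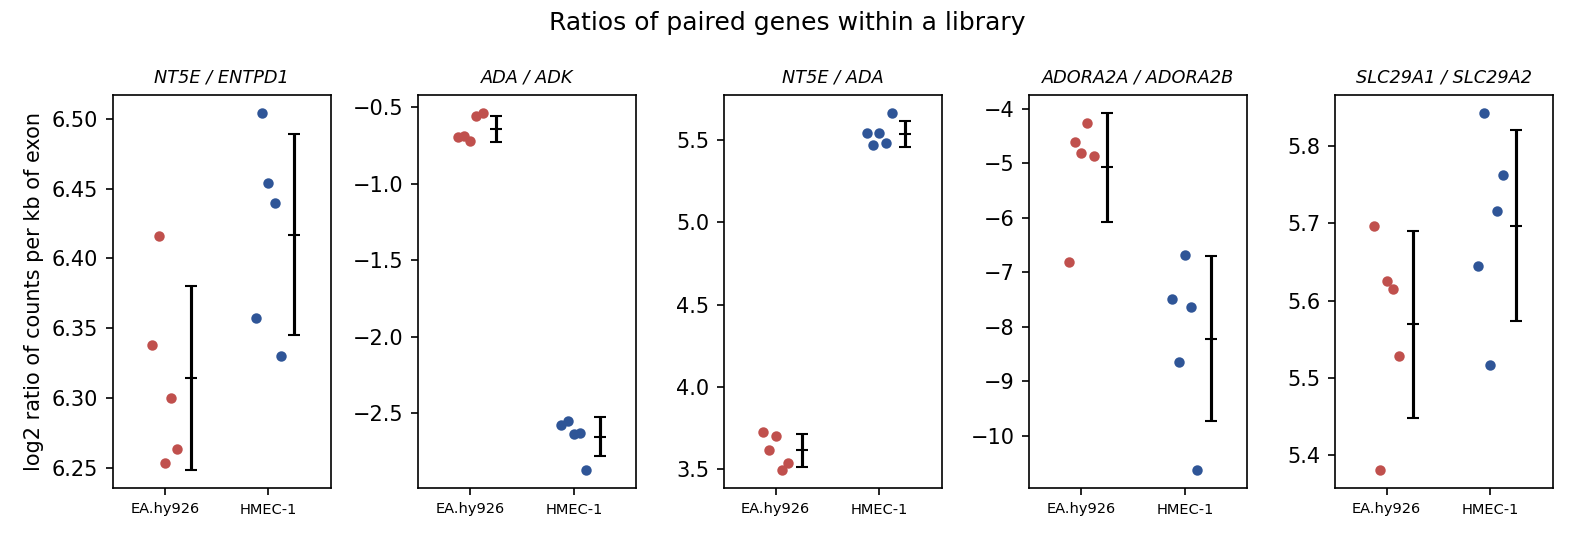
Log2 ratios of counts per kb of exon of 5 gene pairs in each library of EA.hy926 (red) and HMEC-1 (blue), with black bars for mean ± SD of 5 libraries. Each panel has its own vertical scale. *ADA* to *ADK* and *NT5E* to *ADA* separate the lines completely, while *NT5E* to *ENTPD1*, *SLC29A1* to *SLC29A2* and *ADORA2A* to *ADORA2B* overlap.

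The wider pathway was described by 10 lists of genes, which hold 66 genes beside the 10 above. Of the 43 that were tested, 22 passed both thresholds, 9 higher and 13 lower in EA.hy926, where 35.5% of all genes tested passed, 19.1% higher and 16.4% lower. A further 20 had an adjusted p under 0.05 with a smaller fold change, 11 higher and 9 lower, and *CD38* did not pass. The remaining 23 were not tested for low counts. For these genes, as for all genes, the filter on low counts admits a gene expressed in either line alone. Such a gene was likely to pass both thresholds, and the 22 rest in part on such genes, like *ADCY2* (0 counts in HMEC-1) and *SLC17A9* (0 counts in EA.hy926).

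Among the other enzymes that hydrolyse nucleotides outside the cell, *BST1*, a cyclic ADP-ribose synthase, was higher in HMEC-1 (log2FC = -1.70, SE 0.045), at 36.4 ± 1.10 CPM against 11.2 ± 0.61 in EA.hy926. *ENTPD8*, an ecto-nucleotidase of the CD39 family, had 0 to 2 counts in EA.hy926 libraries against 12 to 15 in those of HMEC-1, which is at least 3.72-fold higher in HMEC-1 against a floor of 3 counts per library. *CD38* had a log2FC of -0.57 (SE 0.32, adjusted p = 0.109). *ENTPD2*, *ENTPD3*, *ENPP3*, *ALPL* and *ACP3* were not tested, so *ENTPD1*, *NT5E* and *ENPP1* were the enzymes of this list, with *BST1*, above 1 CPM in a line. All 5 intracellular and secreted NTPDases (*ENTPD4* to *ENTPD7* and *CANT1*) had smaller differences, with log2FC from -0.51 to 0.79.

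In adenosine removal and purine salvage, 9 of 9 genes were tested, *ADA* and *ADK* included, and 7 passed both thresholds, 5 higher and 2 lower in EA.hy926, where 35.5% of all genes tested passed. Beside *ADA*, those higher in EA.hy926 were *AHCY* (log2FC = 1.34), which splits S-adenosylhomocysteine to adenosine, *PNP* (1.29), which cleaves inosine, *APRT* (1.503), which salvages adenine, and *XDH* (3.40, SE 0.38), which makes uric acid and had 14 to 34 counts in EA.hy926 against 1 to 4. Those higher in HMEC-1 were *ADA2* and *DPP4*. *ADA2*, the secreted adenosine deaminase, had a log2FC of -5.77 (SE 0.19, adjusted p = 3.9e-17) with 1 to 7 counts in EA.hy926 against 193 to 257 in HMEC-1. *DPP4*, encoding CD26, the surface protein that binds ADA, had a log2FC of -1.57 (SE 0.041), with 20.2 ± 1.36 CPM against 59.7 ± 1.34 CPM. The intracellular deaminase gene was thus higher in one line, and the secreted deaminase gene and the ADA-binding protein gene in the other. In the turnover of AMP inside the cell, *AK4*, a mitochondrial adenylate kinase, was at least 80.6-fold higher in HMEC-1. *AMPD3* was also higher there (log2FC = -1.58, SE 0.45), at 11 to 19 counts against 1 to 13 in EA.hy926, and the CPM of the lines overlapped. *NT5C2*, *AMPD2*, *AK1* and *AK3* showed smaller differences, and *NT5C1A*, *NT5C1B* and *AMPD1* were not tested. Exons of other genes on the same strand cover 34.5% of the exonic bases of *AK1* and 47.3% of those of *NT5C1B*, so their counts are uncertain.

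Of the other nucleoside transporters, *SLC29A3*, encoding the lysosomal ENT3, was higher in EA.hy926 (log2FC = 2.88, SE 0.11, 8.79 ± 0.73 CPM against 1.20 ± 0.19). *SLC29A4* had a log2FC of -0.55 (SE 0.12), and the concentrative transporters *SLC28A1*, *SLC28A2* and *SLC28A3* were not tested. Among genes for the release of ATP, *SLC17A9*, the vesicular nucleotide transporter, was at 0 counts in all EA.hy926 libraries and at 316 to 448 in HMEC-1, at least 104-fold higher. *CALHM2* was also higher in HMEC-1 (log2FC = -1.21, SE 0.040), whereas the channel genes *PANX1* (0.70), *PANX2* (0.76) and *GJA1* (0.99, just under the fold threshold), and *ABCC6* (0.63), were higher in EA.hy926 by less than the fold threshold. *CALHM1* was not tested.

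For the receptors of ATP itself, 4 of 7 P2X genes were tested. *P2RX4*, the most abundant of them, was higher in HMEC-1 by less than the fold threshold (log2FC = -0.57, SE 0.061, 13.2 ± 0.73 CPM against 8.90 ± 0.63). *P2RX5* and *P2RX7* were higher in HMEC-1, by at least 8.25-fold and 5.56-fold, and *P2RX6* was higher in EA.hy926 by at least 9.40-fold, each at under 1 CPM. *P2RX1*, *P2RX2* and *P2RX3* were not tested. Of 8 P2Y genes, *P2RY2* was higher in EA.hy926 (log2FC = 0.99, SE 0.051, 18.7 ± 0.79 CPM against 9.39 ± 0.38), which is just under the fold threshold. *P2RY11* had a log2FC of 0.31 (SE 0.11, adjusted p = 0.0151), and the CPM of the lines overlapped. *P2RY6* passed both thresholds (1.54, SE 0.37) at 9 to 17 counts against 2 to 9. Exons of other genes on the same strand cover 43.2% of the exonic bases of *P2RX5*, 37.5% of those of *P2RY2* and 55.9% of those of *P2RY11*, so their counts are uncertain. *P2RY1*, *P2RY4*, *P2RY12*, *P2RY13* and *P2RY14* were not tested.

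The adenylyl cyclases, through which adenosine receptors change cAMP, differed by isoform. *ADCY2* was at 440 to 488 counts in EA.hy926 and at 0 in all HMEC-1 libraries, at least 151-fold higher in EA.hy926. *ADCY4* was also higher in EA.hy926 (log2FC = 1.87, SE 0.067). In contrast, *ADCY1* (-3.62, SE 0.41), *ADCY7* (-3.85, SE 0.097) and *ADCY9* (-1.46, SE 0.040) were higher in HMEC-1. Exons of the antisense gene *BRD7* cover 41.8% of the exonic bases of *ADCY7*, whose counts are uncertain if the counting ignored strand. *ADCY3* and *ADCY6* had smaller differences, and *ADCY5* and *ADCY8* were not tested.

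**Figure D4:**
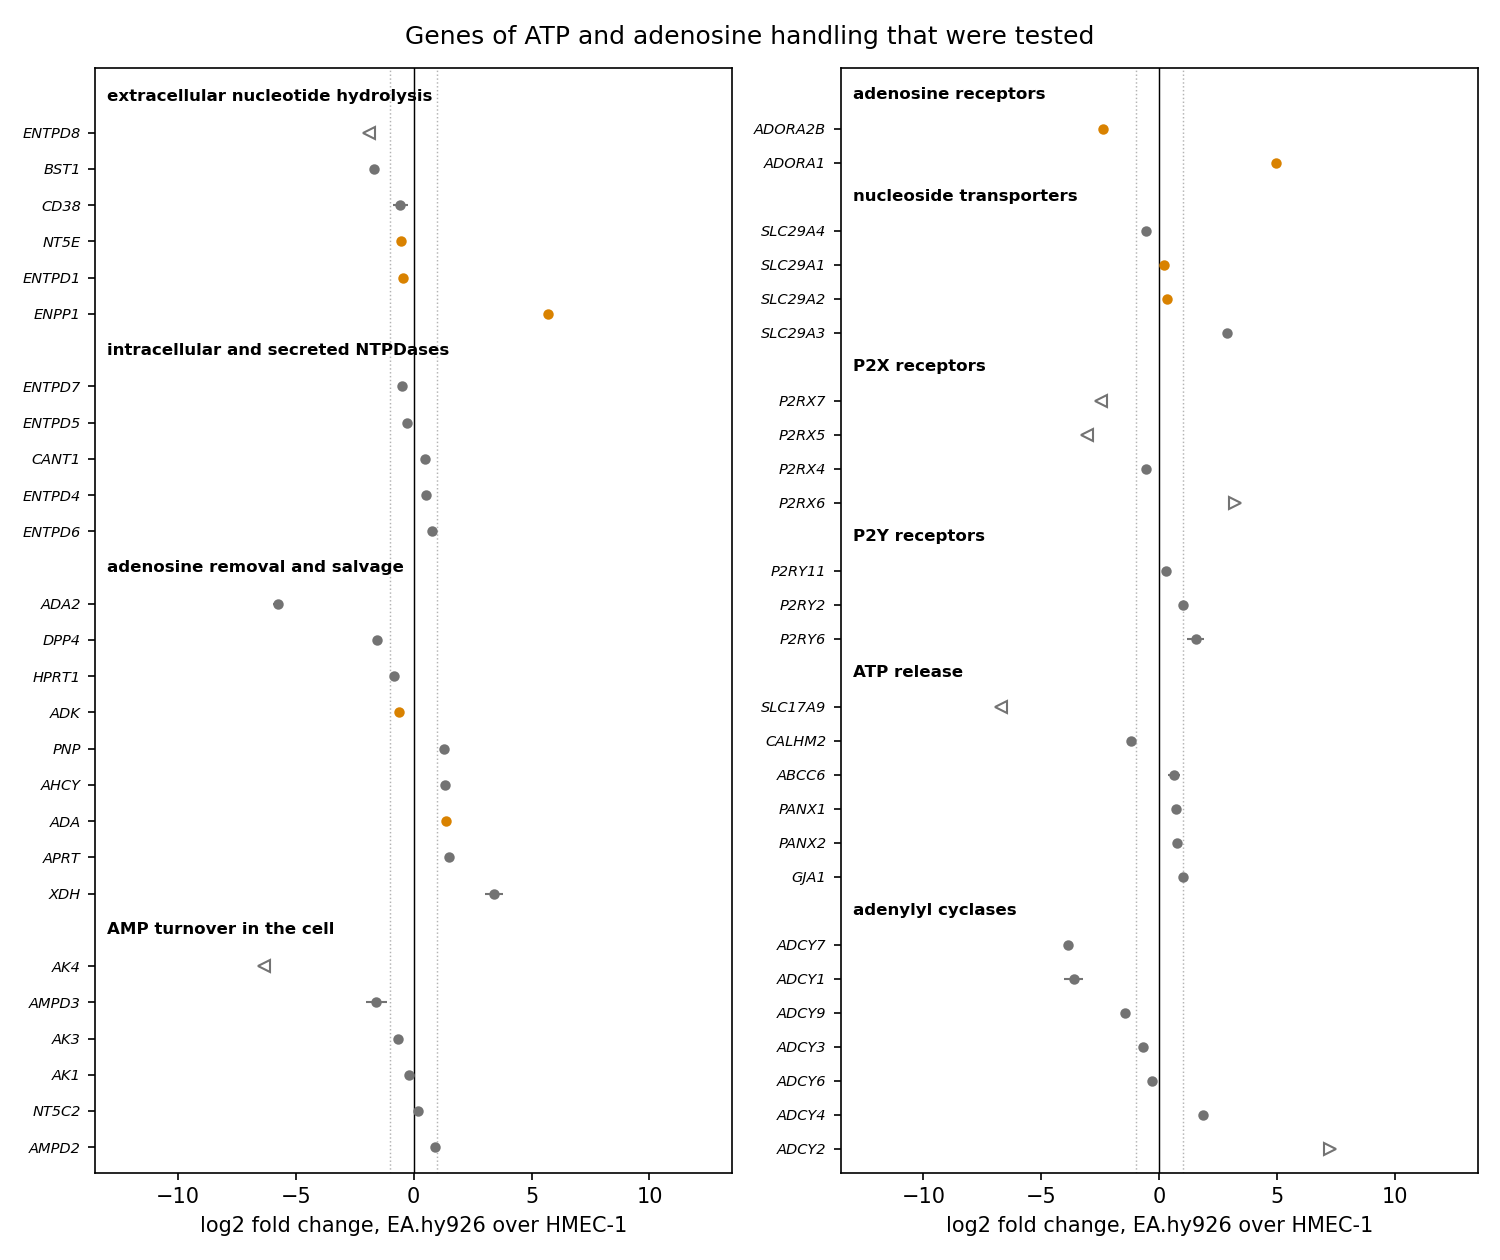
Log2FC of EA.hy926 over HMEC-1 (horizontal axis) for the genes tested in each list, with SE as horizontal bars. Orange points are the 9 tested genes the text is about, grey points the others, and open triangles are lower bounds for genes with at most 3 counts in every library of a line. Dotted lines mark a log2FC of -1 and 1, and *ENPP1* and *ADORA1* lie farthest to the right among the orange points.

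Markers of cell types were checked against the labels. Endothelial markers were expressed in both lines, with *CDH5*, *TEK*, *TIE1* and *ERG* above 100 CPM in each, except *EMCN*, which had 0 to 2 counts in EA.hy926. *ESAM* was low in HMEC-1, at 6.04 ± 0.31 CPM against 235 ± 8.95 CPM in EA.hy926 (log2FC = 5.28). *VWF* was at 22.6 ± 0.44 CPM in HMEC-1 and 57.9 ± 9.30 CPM in EA.hy926. Of the 10 markers, 6 were higher in EA.hy926 past both thresholds and 1, *EMCN*, was lower, where 19.1% and 16.4% of all genes tested were. The summed level of the 10 endothelial markers was 4407 to 4747 CPM for EA.hy926 libraries and 1804 to 1869 CPM for HMEC-1 libraries. The 8 epithelial markers summed to 1274 to 1388 CPM and 423 to 486 CPM, respectively. Most of the HMEC-1 sum came from *KRT7* (314 ± 19.6 CPM) and *KRT18* (108 ± 6.36 CPM). These 2 keratin genes were higher in EA.hy926 by less than the fold threshold (log2FC = 0.99 and 0.58), and *KRT8* was higher there past it (4.83). *EPCAM* was also higher in EA.hy926 (1.83) but low, at 25 to 40 counts against 4 to 22. *KRT19* was higher in HMEC-1 (-4.71), at 3.56 ± 0.45 CPM. *CDH1*, *KRT5* and *ESRP1* were at 0 to 2 counts in every library. The 6 fibroblast and mural markers summed to 405 to 463 CPM in EA.hy926, mostly *RGS5* (430 ± 23.5 CPM), and to 477 to 507 CPM in HMEC-1, mostly *COL1A1* (358 ± 9.29 CPM) and *COL1A2* (108 ± 1.80 CPM), while *LUM* and *DCN* were at 0. The 5 leukocyte markers summed to at most 1.13 CPM. These levels moved with the lines, and their part in the differences above was not tested.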

How the data were processed

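Total RNA of EA.hy926 and HMEC-1 monolayers was sequenced after poly-A selection, with 5 libraries per line. Per the labels and the methods, the authors trimmed reads with fastp and aligned them to GRCh38 with HISAT2, and the values they deposited are raw counts per gene. The methods name HTSeq and the submitters' processing notes featureCounts for the counting, and the annotation release and strand setting are not given in the sources used here. Line and replicate were taken from the sample titles.

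Symbols, coordinates and lengths came from GENCODE v44, which matched 56434 of 60448 identifiers. Low genes were removed by filterByExpr (minimum count 10, minimum total 15), TMM factors (0.942 to 0.964 for EA.hy926, 1.04 to 1.05 for HMEC-1) were applied, and the quasi-likelihood test of edgeR 4.0.16 (R 4.3.3) was run, with Benjamini-Hochberg adjustment over 16310 genes. Limma, which the study used, was an alternative because the values are counts. The SE of a log2FC is its absolute value over the square root of F. Where no library of a line exceeded 3 counts, the fold difference is a lower bound against 3 counts per library (0.0781 to 0.0904 CPM for EA.hy926, 0.0651 to 0.0856 CPM for HMEC-1). Floors cover counting error only, since reads carried no molecular identifiers. Ratios were tested by listing every arrangement of the libraries, with numpy 2.4.6. Promoters were taken from a set of RefSeq promoters (GRCh38.p14). The set used here held 14 for 8 of the 10 genes and no entry for *ADORA2A* and *SLC29A2*.

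The 10 genes and the lists were chosen with earlier results of these data known. Named were the 10 genes, the list genes past both thresholds, every tested P2X and P2Y receptor, list genes not tested as names, and overlapping genes. A further gene of the lists is not reported here and enters no count over them. Other list genes were named after their values were seen.

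Alternatives were DESeq2 1.42.0, limma-voom 3.58.1, RLE factors, library totals, other filters, glmTreat, the replicate number as a block, 2 counts added to ratios and each library left out. Canonical transcript lengths and the sum of *ADORA2A* with its readthrough gene were added after seeing the data. Replicates differed by more than sampling noise (chi-square per degree of freedom of 3.08 to 7.63 over 20 pairs). This cannot tell separate cultures from separate libraries of the same culture, or from the same library sequenced again in another run.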

Additional observations from a re-analysis of the deposited data

Results flagged for a closer look

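In 3 of 30 groups of 5 libraries, 1 library stood apart from the other 4 by Dixon's test at the 95% level, which chance alone gives in about 1 of 20 groups. *ENPP1* in HMEC-1 replicate 2 was at 0.588 CPM, from 24 counts, where the other HMEC-1 libraries were at 0.785 to 0.864 CPM. The log2 ratio of *ADA* to *ADK* in HMEC-1 replicate 5 was -2.87, where the others were at -2.64 to -2.55. Both *ADA* (26.7 CPM, the lowest of its line) and *ADK* (74.9 CPM, the highest of its line) were at the edge of their range in that library. The log2 ratio of *ADORA2A* to *ADORA2B* in EA.hy926 replicate 1 was -6.82, from a single count of *ADORA2A*, where the others were at -4.87 to -4.27. Leaving out each of these libraries kept the sign of the difference between the lines and the calls of *ENPP1* and of the ratio of *ADA* to *ADK*.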

How the results depend on the processing

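Of 446 values under an alternative setting, 426 kept their direction and their side of the threshold, or a count within 1.5 times, 13 were weaker, 7 were stronger and 0 reversed, and all 153 log2FC values of the 9 tested genes kept their direction and call. The number of the 10 genes past both thresholds was 4 under every alternative run, glmTreat included, and the number with an adjusted p under 0.05 was 9, or 8 with library totals. The filter on low counts moved counts most. Over all genes it gave 3255 past both thresholds with at least 10 counts in every library and 9312 with no filter, and leaving out a library gave 5945 to 6000. Under the stricter of these filters, fewer genes were tested. The genes past both thresholds were then 5 (from 7) for adenosine removal and salvage and 2 (from 3) for extracellular nucleotide hydrolysis. They were 0 for AMP turnover, 0 for P2X receptors and 3 for adenylyl cyclases. With no filter they were 5 for extracellular nucleotide hydrolysis and 3 for P2Y receptors. Leaving out a library gave 1 to 2 P2Y receptors, with 2 without EA.hy926 replicate 5. Leaving out a library moved the log2 ratio difference of *NT5E* to *ENTPD1* from -0.13 to -0.081, of *ADORA2A* to *ADORA2B* from 2.54 to 3.57, and of *SLC29A1* to *SLC29A2* from -0.17 to -0.080. Replicate numbers are shared by the lines, but libraries of the same number did not deviate together (correlations of -0.023 to 0.039, best with the own number for 2 of 5). A shared batch that touched few genes, or the lines differently, would not show in these correlations. With the replicate number as a block, 5786 genes passed, and the ratio differences of *ADA* to *ADK* (2.02), *NT5E* to *ADA* (-1.92) and *ADORA2A* to *ADORA2B* (3.14) had adjusted p = 0.0781 by an exact sign-flip test over 5 pairs, whose smallest possible p is 0.0625. Depth limits *ADORA2A*, *ADORA3* and the P2X and P2Y receptors at a few counts per library.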

Other observations

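The genes around the 10 genes were described as background, with names chosen after their values were seen. Within 250 kb of the 10 genes, 79 other genes were tested, of which 21 (26.6%) passed both thresholds, 11 higher and 10 lower in EA.hy926, where 35.5% of all genes tested passed. Beside *ENPP1*, 3 genes were tested, of which *LINC01013* was higher in EA.hy926 and *CCN2*, a matricellular protein gene, was lower. Beside *ADORA1*, 2 of 10 were higher (*LINC01353*, *MYBPH*) and 2 lower (*PPFIA4*, *TUBA5P*). None of the 6 genes tested beside *ADORA2B* and none of the 5 beside *ADK* passed. Beside *ADA*, which was higher in EA.hy926, 3 of 7 were higher (*CCN5*, *KCNK15-AS1*, *PKIG*) and 0 lower, with a median log2FC of 0.99. Around *NT5E*, which was lower in EA.hy926, the 4 tested genes had a median log2FC of 1.21, and around *SLC29A1*, which was higher in EA.hy926, the 9 tested genes had a median log2FC of -0.97.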
